A study of Mus musculus with 14 samples.

Results

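The 10 inflammatory chemokine genes described here were read from the count table of a mouse spleen RNA-seq study by their symbols: Cxcl9, Cxcl10, Cxcl1, Cxcl2, Ccl2, Ccl7, Ccl8, Ccl12, Ccl3 and Ccl4. These 10 genes are 10 of the 22116 named genes in the table, and 10 of 10 passed the low-count filter and were tested. Poly(A) RNA had been sequenced from spleens of 14 female wild-type BALB/c mice aged 6 to 8 weeks, 1 library per mouse, from models of psoriasis-like skin inflammation. The 3 control mice had received petrolatum on the back and ears, although the series' design text calls them untreated. Imiquimod, a Toll-like receptor 7 agonist, had been applied daily for 5 days as a 5% cream, to the back in 4 mice (imiquimod-dorsal) and to the ear in 4 mice (imiquimod-ear). In 3 mice (IL-23-ear) the ears had been injected intradermally with recombinant mouse IL-23, which maintains IL-17-producing T cells. The dose was 1 µg in each ear on alternate days, 4 times within 7 days. Mice injected with vehicle alone were not analysed here, so the injection and the cytokine cannot be told apart in the IL-23-ear group.

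Chemokines are small secreted proteins that guide leukocytes through G protein-coupled receptors. CXCL9 and CXCL10 are induced by interferons and draw activated T cells and NK cells through CXCR3. CXCL1 and CXCL2 draw neutrophils through CXCR2, and CCL2, CCL7 and CCL12 draw monocytes through CCR2. Mouse CCL8 acts mainly through CCR8, and CCL3 and CCL4 draw macrophages and T cells, CCL3 in part through CCR1.

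The libraries held 28354674 to 40289411 counts over named genes, and a count of 0 allows up to 3 counts, worth 0.0755 to 0.0976 CPM, which are counts scaled to library size with TMM factors and the unit of all levels here. This limit covers counting error only. The B cell gene Cd79a, the T cell gene Cd3e and the red pulp macrophage gene Spic were present in all 14 libraries. A principal component analysis placed 56.7% of the variance on its leading axis, where the imiquimod-dorsal libraries lay at 74.1 to 91.3, the controls at -51.7 to -33.2 and the IL-23-ear libraries at -60.8 to -42.9. Imiquimod-ear 5 lay at -31.0, beside control 5, while the other imiquimod-ear libraries lay at -4.95 to 4.42. Imiquimod-dorsal 4 held 94.8 CPM of the pancreatic enzyme gene Ctrb1, against at most 0.700 CPM in any other library. Results that changed without a single library are given with their values.

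Cxcl9 and Cxcl10 together made up most of the 10 members' counts in each library. Their share of the 10 members' summed counts was 92.1% to 93.5% in controls, 62.0% to 80.2% with dorsal imiquimod, 83.5% to 90.8% with ear imiquimod and 92.4% to 94.6% with IL-23. Per kilobase of the canonical transcript, the control level of Cxcl10 was 39.1 ± 19.1 CPM (SD, n = 3) and that of Cxcl9 was 28.0 ± 9.73 CPM (SD, n = 3), a pair whose ranges overlap. Ccl4 followed at 3.73 ± 2.63, Ccl2 at 2.54 ± 1.55 and Ccl3 at 2.44 ± 0.925 CPM per kilobase (SD, n = 3). Ccl8, Cxcl1 and Ccl12 lay at 1.12 to 1.32 CPM per kilobase, and Ccl7 and Cxcl2 were lowest, at 0.355 ± 0.176 and 0.307 ± 0.136 (SD, n = 3). In the imiquimod-dorsal libraries the order of the means was different, with Cxcl9 at 9.47 ± 5.44, Ccl4 at 6.56 ± 2.05, Cxcl10 at 6.33 ± 1.77 and Ccl3 at 5.75 ± 2.02 CPM per kilobase (SD, n = 4). The ranges of these genes overlapped. The Cxcl9 mean lay above the highest library of Ccl4, Cxcl10 and Ccl3 (7.76, 8.94 and 7.99), but it was raised by imiquimod-dorsal 2. That library held 51.0 CPM of Cxcl9, or 17.6 CPM per kilobase, against 18.3 to 21.1 CPM in imiquimod-dorsal 3, 4 and 5. Since whole spleen was sequenced and CPM is a share of each library, several readings cannot be told apart in any of these levels. They are fewer cells of a type, less RNA per cell and more RNA from other cells.

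The stretch of 250 bases before the annotated start is shown for the interferon-induced pair and for the neutrophil-attracting pair, because these members were lower on average with dorsal imiquimod and are textbook targets of interferon-activated factors and NF-kappaB. Sequences are from RefSeq's promoter table, build GRCm38.p6, read 5′ to 3′ on the gene's strand; 7 of the 10 members were in it. Capitals mark matches on either strand to the interferon-stimulated response element, searched as 2 blocks of GAAA with any 2 bases between them, or to the NF-kappaB (kappaB) consensus. Adjoining kappaB matches overlap and are shown as a single run. The positions are chr5:92348890-92349139 (minus strand) for Cxcl10, chr5:92328080-92328329 (minus) for Cxcl9, chr5:90890995-90891244 (plus) for Cxcl1 and chr5:90903649-90903898 (plus) for Cxcl2.
Cxcl10: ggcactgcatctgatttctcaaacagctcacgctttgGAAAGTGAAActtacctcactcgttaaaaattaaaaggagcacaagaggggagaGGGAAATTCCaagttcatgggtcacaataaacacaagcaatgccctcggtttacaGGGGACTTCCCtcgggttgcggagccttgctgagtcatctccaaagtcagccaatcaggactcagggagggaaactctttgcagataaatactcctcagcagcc
Cxcl9: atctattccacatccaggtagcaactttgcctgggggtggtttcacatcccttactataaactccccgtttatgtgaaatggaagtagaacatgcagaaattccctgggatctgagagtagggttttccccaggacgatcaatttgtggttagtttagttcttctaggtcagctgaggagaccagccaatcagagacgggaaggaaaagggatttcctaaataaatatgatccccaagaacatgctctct
Cxcl1: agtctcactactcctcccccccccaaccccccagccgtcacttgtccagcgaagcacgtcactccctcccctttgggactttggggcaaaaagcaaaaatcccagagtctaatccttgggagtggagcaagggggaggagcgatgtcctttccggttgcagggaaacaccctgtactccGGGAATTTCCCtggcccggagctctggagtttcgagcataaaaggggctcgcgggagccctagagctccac
Cxcl2: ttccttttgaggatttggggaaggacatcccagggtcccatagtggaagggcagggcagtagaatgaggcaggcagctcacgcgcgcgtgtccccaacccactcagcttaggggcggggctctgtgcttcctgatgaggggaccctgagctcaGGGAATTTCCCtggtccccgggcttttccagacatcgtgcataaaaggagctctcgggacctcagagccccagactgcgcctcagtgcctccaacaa
The Cxcl10 stretch holds 1 response element, whose first base is at -213 from the start, and kappaB matches at -159, -104 and -103. Cxcl1 holds kappaB matches at -71 and -70, and Cxcl2 at -97 and -96, in each case 1 run of the same letters. The response element was found in 2.98% and the kappaB consensus in 7.25% of 32851 promoter stretches of this length. Cxcl9, Ccl3, Ccl8 and Ccl12 had no match to either motif in this window. These matches describe letters and are not measured binding.

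With dorsal imiquimod Cxcl9, Cxcl10 and Cxcl1 fell and Ccl3 rose. Called means an adjusted p under 0.05 by edgeR, and these 4 of 10 members compare with 59.8% of the 15159 tested genes called (32.3% higher, 27.6% lower), so the members' share lies below that of all genes. The members' median log2 fold change was -0.91, against -0.00067 for all tested genes, and 5 of 10 members had groups that did not overlap, against 61.1% of all genes. Ear imiquimod gave 1 fall, Cxcl10, with 21.2% of genes called (14.3% higher, 6.98% lower), a members' median of -0.54 against 0.02, and no overlap in 2 of 10 members against 24.6% of genes. Between the imiquimod sites 2 members were called, both higher with ear imiquimod, where 47.7% of genes were called (23.3% higher, 24.5% lower), and 1 of 10 did not overlap, against 42.9%. IL-23 against ear imiquimod called 2 members higher, with 17.3% of genes called (7.06% higher, 10.2% lower), and 3 of 10 did not overlap, against 25.6%.

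IL-23 against control called 0 of 10 members with edgeR, where 0.0528% of genes, 8 in all, were called (0.0462% higher, 0.0066% lower). Also 0 members had an unadjusted p under 0.05 and 0 were called by limma-voom or DESeq2. The members' median log2 fold change was -0.07, against 0.01 for all genes, and Cxcl1 and Cxcl2, both lower, were the 2 of 10 without overlap, against 16.7% of genes. The 3 comparisons against control share the control libraries, and the values of each member stand side by side in the plot of fold changes.

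**Figure D1:**
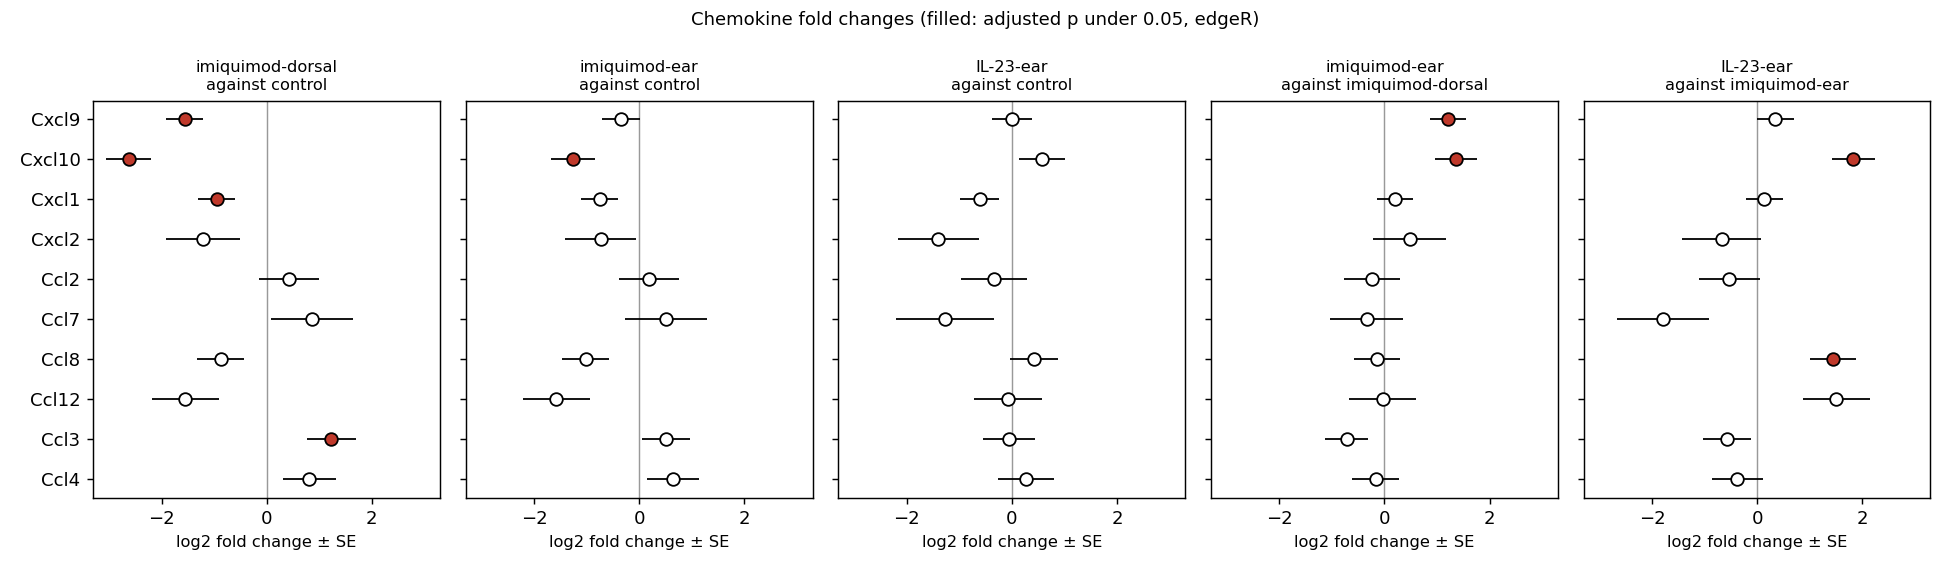
Log2 fold change with SE (x axis) of the 10 chemokines (y axis) in 5 comparisons, filled where the adjusted p of edgeR is under 0.05. With dorsal imiquimod Cxcl9, Cxcl10 and Cxcl1 are filled below 0 and Ccl3 above 0, and no gene is filled for IL-23 against control.

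Both interferon-induced chemokines were lower in the spleen with dorsal imiquimod. Cxcl9 (ENSMUSG00000029417, GRCm39 chr5:92469206-92475945, minus strand) was at 58.4, 72.3 and 112.6 CPM in controls 2, 4 and 5. In imiquimod-dorsal 2, 3, 4 and 5 it was at 51.0, 18.3, 19.3 and 21.1 CPM. Each of the 4 treated libraries lay below each control, and imiquimod-dorsal 2 lay nearest to them. The fall was -1.56 ± 0.36 on the log2 scale (SE; adjusted p = 0.00266, edgeR).

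Cxcl10 (ENSMUSG00000034855, GRCm39 chr5:92494497-92496748, minus strand) was at 18.8, 55.8 and 54.5 CPM in controls 2, 4 and 5. It was at 9.85, 6.24, 5.53 and 6.23 CPM in imiquimod-dorsal 2, 3, 4 and 5. The groups did not overlap, and control 2 was the lowest control. The fall was -2.62 ± 0.43 on the log2 scale (SE; adjusted p = 0.000249, edgeR), and both falls were called in 21 of 21 alternative analyses. Its transcript shares 133 exon bases with Art3 on the opposite strand, and the kit marks no strand; Art3 itself held 59 to 202 counts per library, against 170 to 3305 for Cxcl10.

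Mean levels with ear imiquimod lay between those of the controls and of dorsal imiquimod in both genes. In imiquimod-ear 1, 3, 4 and 5, Cxcl9 was at 70.5, 80.1, 55.1 and 48.6 CPM, overlapping the controls, with a difference of -0.35 ± 0.36 on the log2 scale (SE; adjusted p = 0.511, edgeR). Cxcl10 was at 21.0, 13.9, 14.7 and 22.1 CPM in the same libraries, on both sides of control 2 and below controls 4 and 5. Its change of -1.26 ± 0.41 on the log2 scale (SE) had an adjusted p of 0.0484 by edgeR, and 15 of 21 alternatives did not call it. The adjusted p without control 4 was 0.165, without control 5 it was 0.121, and without imiquimod-ear 1, 3 or 4 it was 0.0801, 0.117 and 0.0788. Leaving out a library of the other groups also ended the call, with adjusted p = 0.0513, 0.0604, 0.0575 and 0.0610 without imiquimod-dorsal 2, 3, 4 and 5 and 0.0584 without IL-23-ear 3 (edgeR).

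The 2 sites of imiquimod differed from each other in both genes. Cxcl9 was higher in the imiquimod-ear than in the imiquimod-dorsal libraries by 1.21 ± 0.34 (log2, SE; adjusted p = 0.0116, edgeR), a difference called in 21 of 21 alternatives although imiquimod-dorsal 2 lay above imiquimod-ear 5. Cxcl10 was higher by 1.36 ± 0.40 (log2, SE; adjusted p = 0.0156, edgeR) with no overlap, and limma-voom did not call it (adjusted p = 0.0893). The ratio of Cxcl10 to Cxcl9 counts was 0.322 to 0.773 in controls, 0.193 to 0.341 with dorsal imiquimod, 0.173 to 0.455 with ear imiquimod and 0.471 to 1.10 with IL-23.

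With IL-23, Cxcl9 was at 63.7, 85.8 and 93.1 CPM and Cxcl10 at 30.0, 94.3 and 67.6 CPM in libraries 1, 2 and 3, both overlapping the controls. The log2 fold change of Cxcl10 against control was 0.57 ± 0.44 (SE; adjusted p = 0.788, edgeR) and that of Cxcl9 was -0.0046 ± 0.38 (SE; adjusted p = 1.0, edgeR). Against ear imiquimod, Cxcl10 was higher by 1.83 ± 0.41 (log2, SE; adjusted p = 0.0129, edgeR), and the lowest IL-23-ear library lay above the highest imiquimod-ear library.

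**Figure D2:**
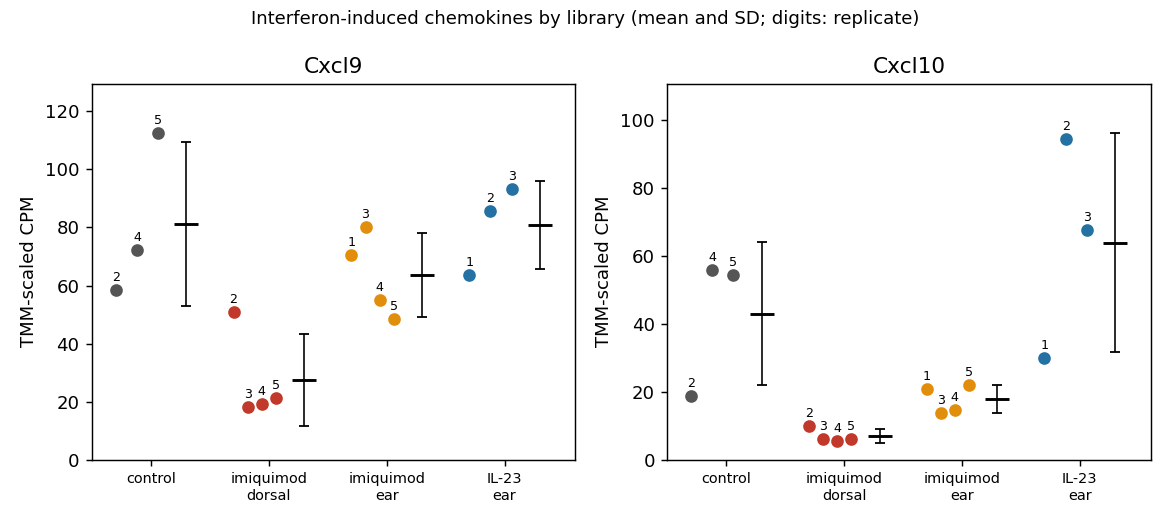
TMM-scaled CPM (y axis) of Cxcl9 and Cxcl10 in each library, by group (x axis), with replicate numbers above the points and the group mean with SD as bars beside them. Dorsal imiquimod libraries lie below all controls in both genes, at 18.3 to 51.0 CPM for Cxcl9 and 5.53 to 9.85 CPM for Cxcl10.

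Of the neutrophil-attracting pair among the members, Cxcl1 fell with dorsal imiquimod and Cxcl2 was near the limit of detection. Cxcl1 (ENSMUSG00000029380, GRCm39 chr5:91039094-91040974, plus strand) had 33, 35 and 54 counts in controls 2, 4 and 5 and 23, 17, 20 and 15 counts in imiquimod-dorsal 2, 3, 4 and 5. These are 0.857 to 1.40 CPM against 0.475 to 0.653 CPM, with no overlap. The fall was -0.95 ± 0.36 (log2, SE; adjusted p = 0.033, edgeR). It was not called without control 4, control 5, imiquimod-dorsal 3 or imiquimod-dorsal 5, where the adjusted p was 0.0566, 0.108, 0.0636 and 0.0751 (edgeR).

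Cxcl1 was at 0.287 to 0.953 CPM in the imiquimod-ear and 0.668 to 0.856 CPM in the IL-23-ear libraries. Against control the log2 fold changes were -0.75 ± 0.35 (SE; adjusted p = 0.142, edgeR) and -0.61 (adjusted p = 0.713, edgeR). Neither passed the test.

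Cxcl2 (ENSMUSG00000058427, GRCm39 chr5:91051730-91053797, plus strand) had 19, 6 and 13 counts in controls, 7, 6, 3 and 3 with dorsal imiquimod, 14, 0, 6 and 11 with ear imiquimod and 6, 4 and 4 with IL-23. Imiquimod-ear 3, with 0 counts, and imiquimod-dorsal 4 and 5 were at or under the 3-count limit. The groups overlapped for imiquimod, and the log2 fold change was -1.21 ± 0.71 (SE; adjusted p = 0.156, edgeR) for dorsal imiquimod, or -1.26 with adjusted p = 0.0453 without imiquimod-ear 3. The share of even numbers among counts of 1 to 10 was 58.2% to 60.9%, so counts this low may not all be single fragments. The longest run of identical bases between the Cxcl1 and Cxcl2 transcripts was 23 bases, the longest between any members along with that of Ccl2 and Ccl7.

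The 4 genes Ccl2, Ccl7, Ccl12 and Ccl8 lay close together on chromosome 11, and none passed the test against control in any treated group. Ccl12 (ENSMUSG00000035352, GRCm39 chr11:81992645-81994466, plus strand), a mouse ligand of CCR2, had 34, 26 and 38 counts in controls and 18, 6, 6 and 10 counts in imiquimod-dorsal 2, 3, 4 and 5. With ear imiquimod it had 13, 21, 0 and 10 counts, and with IL-23 it had 25, 36 and 32. All 8 imiquimod libraries lay below all 3 controls. The log2 fold changes of -1.55 ± 0.64 for dorsal and -1.58 ± 0.64 for ear imiquimod (SE) had adjusted p-values of 0.0516 and 0.0935 by edgeR, which miss the threshold of 0.05. The dorsal value was called in 8 of 21 alternatives, among them DESeq2 (adjusted p = 0.0286), RLE size factors (0.0475) and the fits without imiquimod-dorsal 2 (0.0352) or without imiquimod-ear 3, 4 or 5 (0.0324, 0.00592 and 0.0486). The ear value was called by limma-voom (adjusted p = 0.0386), by DESeq2 (0.047) and without imiquimod-ear 3 (0.0486).

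Ccl8 (ENSMUSG00000009185, GRCm39 chr11:82006007-82007625, plus strand) had 34, 16 and 25 counts in controls, 15, 12, 10 and 11 with dorsal and 12, 15, 4 and 19 with ear imiquimod. On the CPM scale all imiquimod libraries lay below the controls, at 0.325 to 0.426 and 0.112 to 0.478 against 0.512 to 0.883. Neither the dorsal value of -0.87 ± 0.45 (log2, SE; adjusted p = 0.106) nor the ear value of -1.02 ± 0.44 (adjusted p = 0.117) passed edgeR's test, although the former did in the fit of its 2 groups alone (adjusted p = 0.0455). With IL-23, Ccl8 had 51, 31 and 19 counts, all 3 above ear imiquimod in CPM. That difference was 1.44 ± 0.44 (log2, SE; adjusted p = 0.038, edgeR). It was lost without imiquimod-ear 1, 3 or 4 (adjusted p = 0.0875, 0.0542 and 0.0745, edgeR), without IL-23-ear 1 or 2 (0.183 and 0.0763) and in the fit of these 2 groups alone (0.106).

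Ccl2 (ENSMUSG00000035385, GRCm39 chr11:81926397-81928279, plus strand) varied widely among controls, at 0.624, 2.59 and 2.98 CPM. It was at 1.99 to 4.16 CPM with dorsal imiquimod, 1.18 to 4.44 CPM with ear imiquimod and 0.652 to 2.62 CPM with IL-23. Each treated group overlapped the controls, and the log2 fold changes were 0.42 ± 0.58, 0.19 and -0.34, with adjusted p of 0.547, 0.840 and 0.924 (edgeR). The direction of the dorsal value turned to -0.064 without control 2. Ccl7 (ENSMUSG00000035373, GRCm39 chr11:81936532-81938351, plus strand) had 5 to 17 counts in controls, 5 to 29 with dorsal imiquimod, 3 to 28 with ear imiquimod and 7, 0 and 6 with IL-23. No comparison of Ccl7 passed the test, the dorsal value being 0.86 ± 0.78 (log2, SE; adjusted p = 0.361, edgeR).

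Ccl3 was the only one of the 10 members called higher with dorsal imiquimod. Ccl3 (ENSMUSG00000000982, GRCm39 chr11:83538670-83540191, minus strand) was at 1.56, 1.41 and 2.72 CPM in controls 2, 4 and 5 and at 5.11, 2.53, 4.00 and 6.20 CPM in imiquimod-dorsal 2, 3, 4 and 5. Imiquimod-dorsal 3 lay below control 5, so the groups overlapped. The rise was 1.23 ± 0.47 (log2, SE; adjusted p = 0.0352, edgeR). It was not called without control 2 or 4 (adjusted p = 0.127 and 0.136), without imiquimod-dorsal 2 or 5 (0.0671 and 0.0898) or without IL-23-ear 3 (0.0529, edgeR). Its transcript shares 276 exon bases with the non-coding gene Gm53692 on the opposite strand, whose reads cannot be told apart from its own.

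Ccl4 (ENSMUSG00000018930, GRCm39 chr11:83553383-83555509, plus strand), the neighbour of Ccl3 on the opposite strand, was at 1.04, 2.08 and 4.56 CPM in controls 2, 4 and 5. It was at 5.22, 2.40, 5.33 and 5.06 CPM in imiquimod-dorsal 2, 3, 4 and 5, overlapping control 5. The log2 fold change of 0.81 ± 0.50 (SE; adjusted p = 0.176, edgeR) did not pass the test, and without control 5 it was 1.49 with adjusted p = 0.0247. With ear imiquimod, Ccl3 was at 1.23 to 4.62 CPM and Ccl4 at 2.16 to 6.42 CPM, with imiquimod-ear 1 and 3 the highest of both genes. With IL-23 they were at 1.20 to 2.48 and 2.45 to 3.99 CPM, and neither group was called against control for either gene. Between the imiquimod sites Ccl3 differed by -0.72 ± 0.42 (log2, SE; adjusted p = 0.168, edgeR), or by -1.09 with adjusted p = 0.0476 without imiquimod-ear 1. The ratio of Ccl4 to Ccl3 counts was 0.667 to 1.68 in controls, 0.816 to 1.33 with dorsal imiquimod, 1.39 to 1.91 with ear imiquimod and 1.375 to 2.37 with IL-23.

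**Figure D3:**
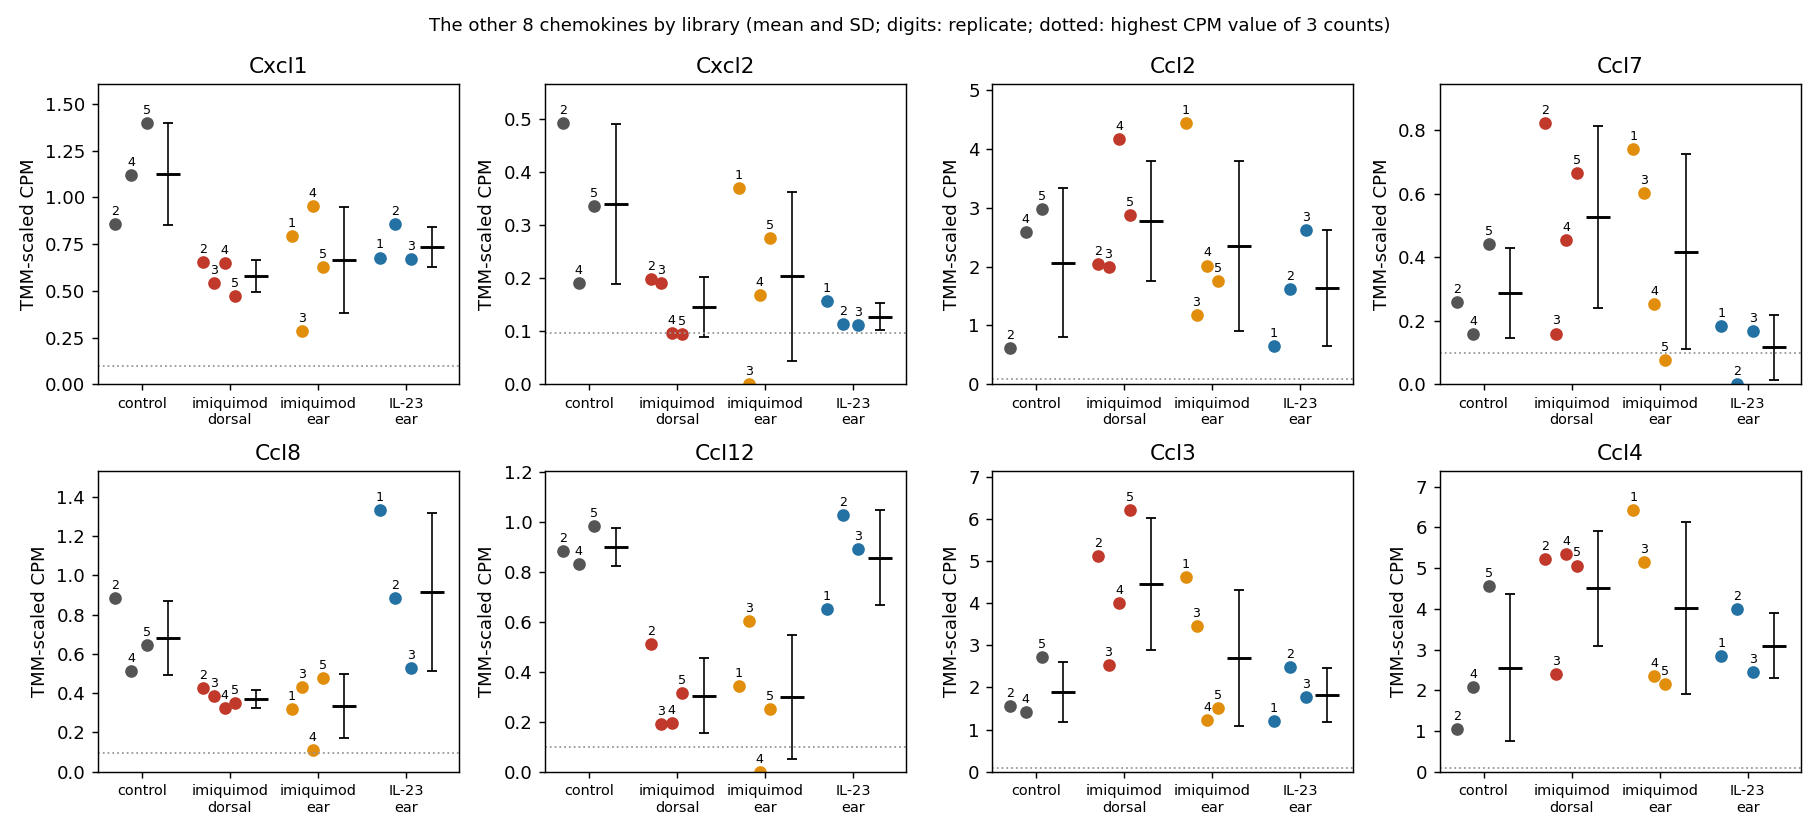
TMM-scaled CPM (y axis) of the other 8 chemokines in each library, by group (x axis), with replicate numbers above the points and the group mean with SD as bars beside them; the dotted line is the highest CPM that 3 counts are worth, 0.0976. All imiquimod libraries lie below the controls for Ccl8 and Ccl12, and Ccl3 is at 2.53 to 6.20 CPM with dorsal imiquimod against 1.41 to 2.72 CPM in controls.

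Of the other inflammatory chemokines, 18 of 21 listed were tested, and 5 rose and 9 fell with dorsal imiquimod. Of all tested genes, 32.3% rose and 27.6% fell. The median log2 fold change of the 18 was -0.73, against -0.00067 for all genes. Ccl5, which draws T cells, was at 50.9 to 65.4 CPM in controls and 13.0 to 22.8 CPM with dorsal imiquimod, a change of -1.73 ± 0.20 (log2, SE; adjusted p = 9.68e-06, edgeR). Ccl24, an eosinophil attractant that acts through CCR3, fell by 1.90 (adjusted p = 9.28e-06), Xcl1, which draws cross-presenting dendritic cells through XCR1, fell by 1.76 (adjusted p = 0.000148), and Cxcl16, the ligand of CXCR6, fell by 1.08 on the log2 scale (adjusted p = 1.74e-05, edgeR). These 4 genes were picked for their small adjusted p, and in each the groups did not overlap, as in 61.1% of all tested genes. All 4 are falls. Cxcl5, another neutrophil attractant, was chosen for mention after its values were seen and was among the 5 that rose. It was at 0.768 to 2.59 CPM in controls and 2.57 to 4.46 CPM with dorsal imiquimod, so the groups overlapped. Its change was 1.21 ± 0.48 (log2, SE, adjusted p = 0.0423, edgeR). Its result under the alternatives is not reported here.

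Cxcl11, the other interferon-induced CXCR3 ligand, was chosen for mention after its values were seen. It had 39, 49 and 188 counts in controls and 6 to 14 counts with dorsal imiquimod, a change of -3.15 ± 0.55 (log2, SE; adjusted p = 0.00025, edgeR). With ear imiquimod it was the 1 of 18 called, where 21.2% of all tested genes were called (14.3% higher, 6.98% lower). Its change was -1.81 ± 0.50 (log2, SE; adjusted p = 0.0222, edgeR). That call was lost without control 5 (adjusted p = 0.163), imiquimod-ear 3 (0.0581) or imiquimod-ear 4 (0.055, edgeR), in the fit of these 2 groups alone (0.0699) and with limma-voom (0.0876). With IL-23 none of the 18 was called against control by edgeR, limma-voom or DESeq2, and 1 had an unadjusted p under 0.05.

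Among 10 receptors of these ligands, 3 rose and 3 fell with dorsal imiquimod, a called share near the 59.8% of all tested genes. Cxcr3, the receptor of CXCL9 and CXCL10, was at 15.3 to 18.3 CPM in controls, 8.17 to 9.99 with dorsal imiquimod, 25.8 to 53.4 with ear imiquimod and 15.1 to 20.2 with IL-23. It thus fell with dorsal imiquimod (-0.89 ± 0.20, log2, SE; adjusted p = 0.00179) and rose with ear imiquimod (1.08 ± 0.20; adjusted p = 0.00446, edgeR), with no overlap with controls in either. The difference between the sites was 1.97 ± 0.19 (log2, SE; adjusted p = 5.58e-06, edgeR). Cxcl9 and Cxcl10, its ligands, were not called higher than control in the imiquimod-ear libraries.

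Ackr1, an atypical receptor on red blood cells and venules that binds chemokines without signalling, was at 2.23 to 2.69 CPM in controls and 44.8 to 65.3 CPM with dorsal imiquimod. Its rise was 4.44 ± 0.66 (log2, SE; adjusted p = 0.000114, edgeR). Over the same libraries the summed CPM of 9 erythroid marker genes was 7913 to 25006 in controls and 54783 to 91304 with dorsal imiquimod. Of these genes 9 of 9 rose, against 32.3% of all tested genes. Their part in the Ackr1 value was not tested. Ackr2, which scavenges inflammatory CC chemokines, rose by 1.11 ± 0.21 (adjusted p = 0.000433), and Cxcr2 rose by 0.72 ± 0.19 (log2, SE; adjusted p = 0.00422, edgeR). Ccr1 changed by -0.82 ± 0.19 (adjusted p = 0.00187), while Ccr2, at 0.24 ± 0.17 (log2, SE; adjusted p = 0.242, edgeR), did not pass the test.

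Genes of the interferon pathway that induces Cxcl9 and Cxcl10 were mostly lower with dorsal imiquimod, where 12 of 15 fell and 1 rose, against 27.6% of all tested genes lower and 32.3% higher. The 15 include the inhibitor Socs1, so their counts describe the genes and do not measure the activity of the pathway. Irf7, an interferon-induced regulator of type I interferon genes, was at 322 to 811 CPM in controls and 23.3 to 40.5 CPM with dorsal imiquimod, and changed by -4.19 ± 0.40 (adjusted p = 4.75e-06), Stat2 by -1.84 ± 0.17 (adjusted p = 2.22e-06) and Irf1 by -1.02 ± 0.20 (log2, SE; adjusted p = 0.000669, edgeR). Ifng, which encodes interferon gamma, had 27 to 51 counts in controls and 4 to 29 with dorsal imiquimod, at -1.13 ± 0.41 (log2, SE; adjusted p = 0.0275, edgeR). That call was lost without control 5 (adjusted p = 0.0919), without imiquimod-dorsal 5 (0.055) and in the fit of these 2 groups alone (0.0605).

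With ear imiquimod 5 of the 15 fell and 0 rose, where 6.98% of all tested genes fell and 14.3% rose, and 3 were called without control 4. Irf7 was at 79.1 to 211 CPM, below all controls, a change of -1.94 ± 0.37 (log2, SE; adjusted p = 0.0054, edgeR). Of 18 interferon response genes, 16 fell with dorsal and 13 with ear imiquimod, against 27.6% and 6.98% of all tested genes, and the latter count was 3 without control 4. With IL-23 none of the 15 or the 18 was called against control by edgeR, limma-voom or DESeq2, and 0 had an unadjusted p under 0.05.

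The NF-kappaB pathway is known to induce Cxcl1, Cxcl2, Ccl2, Ccl3 and Ccl4. The 19 genes listed for it include inhibitors such as Nfkbia and Tnfaip3, and Zfp36, so their counts give no direction of the pathway. Of the 19, 2 rose and 10 fell with dorsal imiquimod, where 32.3% of all tested genes rose and 27.6% fell. The called share of both directions together was near the 59.8% of all tested genes. The rises were Il6 at 2.59 ± 0.69 (log2, SE; adjusted p = 0.0053), from 4 to 27 counts in controls to 18 to 101, and Il1b at 1.21 ± 0.36 (adjusted p = 0.0116, edgeR), which was not called without control 2 (0.0545). Rel, a subunit of NF-kappaB, changed by -0.89 ± 0.09 (adjusted p = 2.34e-06), and Zfp36, whose protein destabilises cytokine and chemokine mRNAs, by -0.67 ± 0.09 (log2, SE; adjusted p = 3.68e-05, edgeR). Tnf, at -0.39 ± 0.32 (log2, SE; adjusted p = 0.315, edgeR), did not pass the test. With ear imiquimod the called share was near the 21.2% of all tested genes. Of the 19, 4 fell and 0 rose, where 6.98% of all tested genes fell and 14.3% rose. The count was 0 without control 4 and in the fit of these 2 groups alone, and 1 each without control 2, imiquimod-ear 1 or imiquimod-ear 4.

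**Figure D4:**
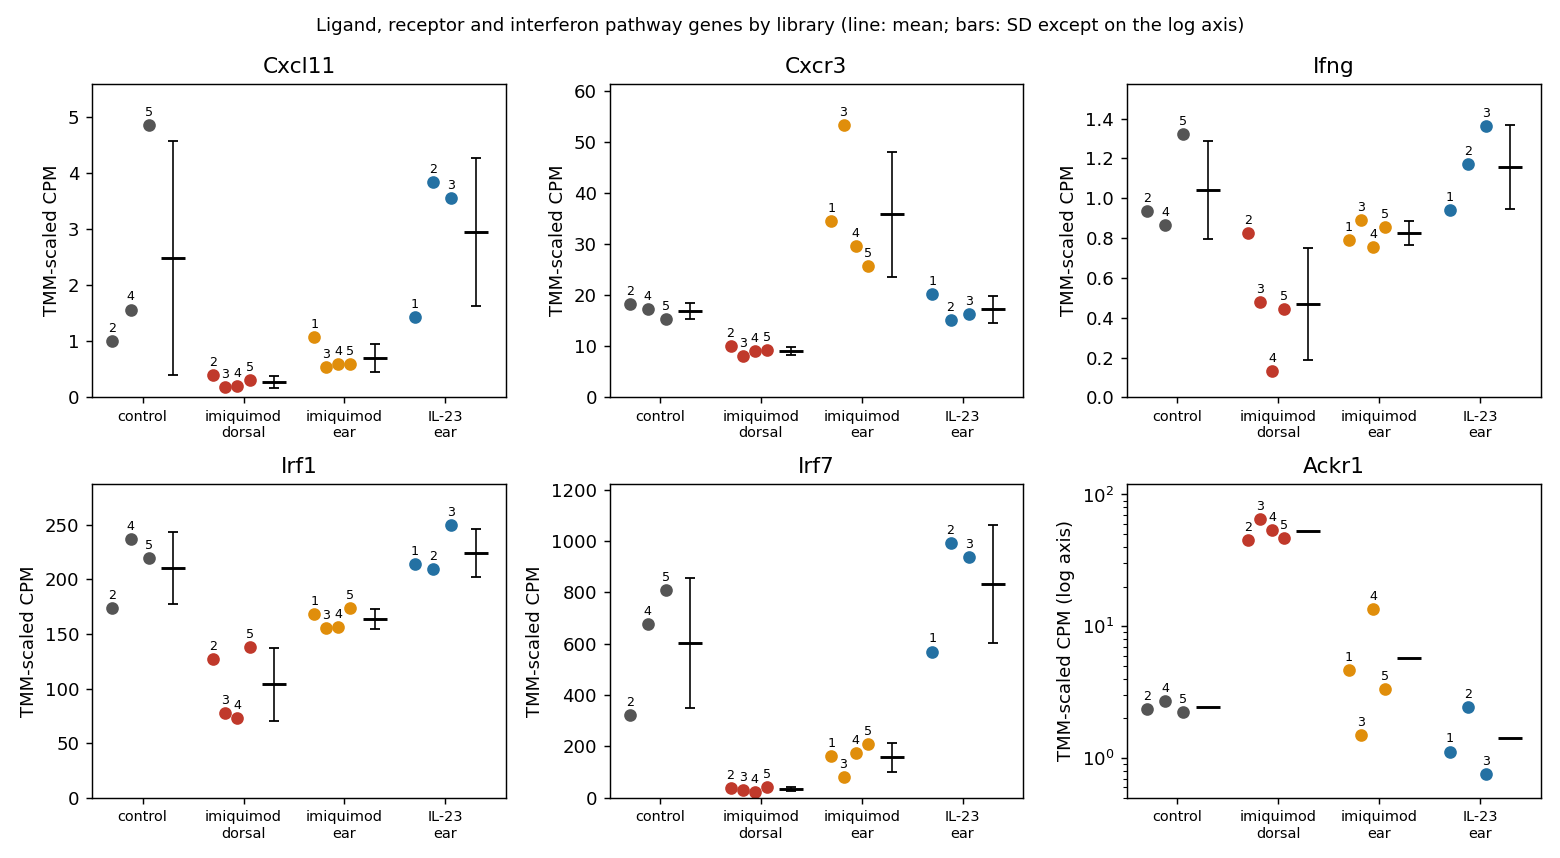
TMM-scaled CPM (y axis; log axis for Ackr1) of Cxcl11, Cxcr3, Ifng, Irf1, Irf7 and Ackr1 in each library, by group (x axis), with replicate numbers above the points and mean (with SD except for Ackr1) beside them. Cxcr3 is at 25.8 to 53.4 CPM with ear imiquimod and 8.17 to 9.99 CPM with dorsal imiquimod, on either side of the controls at 15.3 to 18.3 CPM.

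Marker genes of cells that make or follow these chemokines were read in the same libraries, where 59.8% of all tested genes were called with dorsal imiquimod (32.3% higher, 27.6% lower). The summed CPM of 13 NK and T cell markers was 643 to 759 in controls, 154 to 219 with dorsal imiquimod, 393 to 678 with ear imiquimod and 812 to 854 with IL-23, and 11 of 13 fell with dorsal imiquimod. That of 9 dendritic cell markers was 525 to 611 in controls and 183 to 232 with dorsal imiquimod, with 8 of 9 lower. This list includes Bst2, one of the genes most like Cxcl10 over the 14 libraries (r = 0.973), so its sum does not measure dendritic cells alone. Neutrophil markers rose in 10 of 10 genes, from a sum of 115 to 160 CPM to 1124 to 2024 CPM. The neutrophil list includes Cxcr2, which is also among the receptors above that rose. Monocyte markers summed to 1240 to 1406 CPM in controls and 930 to 1122 CPM with dorsal imiquimod, where 3 of 10 rose and 2 fell. Macrophage markers summed to 2459 to 2773 and 1635 to 2345 CPM, with 1 of 14 higher and 3 lower, so fewer markers of these last 2 lists were called than the share of all genes. Each gene of these lists had counts in all 14 libraries. The part of these cell types in the chemokine values was not tested.

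As a description over the 14 libraries, which share the 4 groups, log2 levels of Cxcl9 and Cxcl10 had a Pearson r of 0.850. Among 12405 genes whose log2 CPM averaged 1 or more, those most like Cxcl10 were Trafd1 (r = 0.976), Ogfr (0.975), Zbp1 (0.973), Bst2 (0.973) and Adar (0.972). Those most like Cxcl9 were Cfb (r = 0.947), Stat3 (0.936), Ccl19 (0.932), Ly6a (0.931) and Gbp10 (0.924), of which Ly6a and Gbp10 have close paralogs whose reads may be split. Ccl19, a white pulp chemokine, was at 66.4 to 109 CPM in controls and 14.0 to 38.5 CPM with dorsal imiquimod, a change of -1.77 ± 0.29 (log2, SE; adjusted p = 0.000253, edgeR).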

How the data were processed

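Spleen RNA of 14 mice was analysed from the table of raw read counts per gene and library deposited by the authors. Per the submitters' processing notes, which give no roles, the tools were HISAT2 2.2.1, featureCounts 2.0.3, DESeq2 1.38.3, StringTie 2.2.1 and fastp 0.23.2, with build GRCm39. The counting of multi-mapping reads is not given in the sources used here. Libraries were non-stranded and read from both ends for 150 bases, per the labels' protocols. Samples are labelled biological replicates of 1 batch, and replicate numbers missing from some groups are unexplained.

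Of 22740 entries, 624 unnamed assembled loci (0.484% to 0.674% of each library's counts) were left out. Genes were tested with edgeR 4.0.16 (R 4.3.3): TMM scaling, filterByExpr with a minimum count of 10, robust quasi-likelihood F test, all 14 libraries in 1 fit with 10 residual degrees of freedom, and Benjamini-Hochberg adjustment over 15159 genes with a threshold of 0.05. The common biological coefficient of variation was 18.7%. Adjusted p-values are edgeR's where no tool is given. Levels are TMM-scaled CPM as mean ± SD, and log2 values for correlations used a prior count of 2. The 18 replicate pairs differed beyond sampling noise (chi-square per degree of freedom 24.1 to 141), and each library counts once. Reads carry no molecular identifiers, so limits cover counting error only. The fit was tested on simulated data.

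The 10 members and all lists were chosen with earlier results of these data known. All members are named whatever their result. Of other lists, at most the 4 called genes of smallest adjusted p with dorsal imiquimod are named. Any receptor, interferon or NF-kappaB gene whose role is given is named too. Cxcl5 and Cxcl11 were added after their values were seen. Gene positions and overlaps are from GENCODE vM39 on GRCm39. Alternatives were DESeq2 1.42.0, limma-voom (limma 3.58.1), RLE size factors, no filter, removal of 268 haemoglobin and immunoglobulin genes, the compared groups alone, a replicate block and each library left out; they were applied to genes outside the members after the data were seen. Some single-gene results are not reported here.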

Additional observations from a re-analysis of the deposited data

Results flagged for a closer look

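Of 20 groups of 4 libraries, 10 chemokines in each imiquimod group, 3 held a library far from the other 3, and chance flags about 1 in 20. The groups share libraries, and Cxcl9 and Cxcl10 were correlated (r = 0.850), so the flags are not independent and this rate is only a rough guide. Imiquimod-dorsal 2 stood apart as the highest of its group in Cxcl9, at 51.0 CPM with a gap of 0.915 of the group's range, and in Cxcl10, at 9.85 CPM with a gap of 0.835. Imiquimod-dorsal 3 stood apart as the lowest in Ccl4, at 2.40 CPM with a gap of 0.908.

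Some chemokines differed between treatments when the difference itself was tested with edgeR. Ear imiquimod was above dorsal imiquimod in Cxcl9 by 1.21 and in Cxcl10 by 1.36 on the log2 scale. IL-23 was above ear imiquimod in Cxcl10 by 1.83 and in Ccl8 by 1.44.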

How the results depend on the processing

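The calls of Cxcl9 and Cxcl10 in dorsal imiquimod against control and of Cxcl9 between the imiquimod sites held in 21 of 21 alternatives. The count of members called with dorsal imiquimod, 4, was 2 with the replicate block and 2 to 6 when single libraries were left out (2 without control 4 or imiquimod-dorsal 5). With ear imiquimod the count of 1 was 0 without the filter, without haemoglobin and immunoglobulin genes, in the compared groups alone and with the block, 2 with DESeq2, and 0 to 1 without single libraries. Between the sites the count of 2 was 1 with limma-voom and 2 to 3 without single libraries. For IL-23 against ear imiquimod the count of 2 was 1 in the compared groups alone, 0 with the block and 1 to 2 without single libraries; for IL-23 against control it was 0 throughout. Over all genes, 9071 calls with dorsal imiquimod became 8023 to 9291 without single libraries, and 7237 between the sites became 6280 to 7266. For ear imiquimod 3219 became 1126 in the compared groups alone, 311 with the block and 1066 to 4977 without single libraries. For IL-23 against control 8 became 0 with RLE size factors, without the filter, in the compared groups alone and with the block, 14 with limma-voom, 133 with DESeq2 and 0 to 12 without single libraries. For IL-23 against ear imiquimod 2623 became 1247, 1261 and 1101 to 4463 under the compared groups alone, the block and the left-out libraries.

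Deviations from the group mean over all genes correlated at -0.436 to 0.313 in 13 same-numbered pairs. Differences in cell content within a group also enter these values, so they cannot settle whether the replicate numbers pair the libraries. With the replicate block the adjusted p was 0.113 for Cxcl1 and 0.0608 for Ccl3 with dorsal imiquimod, and 0.0542 for Cxcl10 and 0.154 for Ccl8 in IL-23 against ear imiquimod. For ear imiquimod against control it was 0.235 for Cxcl10, 0.0598 for Cxcr3 and 0.186 for Cxcl11. The block also called 0 of 18 interferon response genes, 1 of 15 interferon pathway genes, 0 of 19 NF-kappaB genes, 0 of 10 receptors and 0 of 18 other chemokines there, in place of 13, 5, 4, 1 and 1.

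Direction turned only in values that no test called. With the block, Ccl7 was -0.16 in ear imiquimod against control, and Ccl2 was 0.089 in IL-23 against control and 0.012 against ear imiquimod. With limma-voom, Cxcl9 was 0.031 in IL-23 against control, and Cxcl2 was -0.20 between the sites and 0.056 in IL-23 against ear imiquimod. With single libraries left out, Ccl2 ranged from -0.064 to 0.74 (dorsal), -0.35 to 0.53 (ear) and -0.87 to 0.030 (IL-23) against control and -0.72 to 0.030 between the sites. In IL-23 against control the ranges were -0.21 to 0.30 for Cxcl9, -0.37 to 0.28 for Ccl3, -0.12 to 0.98 for Ccl4 and -0.24 to 0.078 for Ccl12. Between the sites they were -0.023 to 0.46 for Cxcl1, -0.47 to 0.055 for Ccl4, -0.76 to 0.024 for Ccl7, -0.36 to 0.14 for Ccl8 and -0.58 to 0.37 for Ccl12, and for Cxcl1 in IL-23 against ear imiquimod -0.088 to 0.36. For other genes with ear imiquimod they were -0.51 to 0.049 for Xcl1, -0.00047 to 0.37 for Il1b and -0.35 to 1.27 for Il6, and between the sites -0.15 to 0.14 for Ccr2. The cause was not tested. Scaling moved the median of all genes by at most 0.0299. Depth limits Cxcl2, Ccl7, Ccl8 and Ccl12, whose lowest libraries held 0 to 4 counts.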
